A study of Saccharomyces cerevisiae with 16 samples.

Results

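The a-specific genes of budding yeast are those that haploid cells of mating type a express and cells of mating type alpha keep off. The 7 genes described here were chosen by name, with the RPKM values of CK2 and WT cells in these data known, and all 7 of them were present among the 7125 genes of the expression table. They are MFA1 and MFA2, which encode the mating pheromone a-factor, STE6, its exporter, STE2, the receptor for alpha-factor, BAR1, the secreted protease that degrades alpha-factor, AGA2, the binding subunit of a-agglutinin, and ASG7, which dampens pheromone signalling in newly formed zygotes. The CK2 and WT values of these genes are therefore given as a description with no test.

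Total RNA of Saccharomyces cerevisiae grown in the rich medium YPD was sequenced for 6 groups of 2 biological replicates, 12 in all, from 16 libraries. The groups named control, serine and WT all have the genotype label wt, and serine is the treatment that is set against control. CK2 has the label ck2, which does not say which subunit of this protein kinase was altered or how. YBL574 and H3T11A were sequenced from 2 libraries of each RNA extraction, and their libraries were averaged. H3T11A cells carry histone H3 with alanine at threonine 11, the residue that the metabolic enzyme complex SESAME phosphorylates. The study's strain list gives the YBL wild type and its H3T11A counterpart as MATa strains whose chromosomal H3 and H4 gene pairs were deleted and replaced by a plasmid copy, which limits them as a model of cells with native histone genes. The labels name neither the mating type nor the parent strain of control, serine, WT and CK2, and do not say whether replicates were separate cultures, so p-values measure the spread between these samples, which may be technical.

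Mating type in yeast is set by the MAT locus on the third chromosome. In alpha cells, the alpha2 repressor binds together with Mcm1 to an operator upstream of every a-specific gene and recruits the Tup1-Cyc8 corepressor, whereas in a cells alpha2 is missing and Mcm1 activates the same genes. The alpha-specific genes are turned on by alpha1 with Mcm1 and are silent in a cells.

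Operator-like stretches were looked for in the RefSeq yeast reference (build sacCer3, the build that the submitters' processing notes name), because they are the shared element through which these genes are known to be switched. The stretch sought was a CCNNNNNNGG box, the core of an Mcm1 site, with the alpha2 site CATGT before it or ACATG after it within 12 bases, read 5′ to 3′ on the gene's strand. All 7 genes had 1 such stretch in the 300 bases before the start codon, shown here with the CC and GG of the box and the alpha2 sites in capitals.
MFA1 (chrIV:1384941-1384973, plus strand): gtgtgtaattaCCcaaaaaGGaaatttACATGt
MFA2 (chrXIV:352162-352194, plus strand): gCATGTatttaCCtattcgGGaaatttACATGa
STE6 (chrXI:46476-46508, minus strand): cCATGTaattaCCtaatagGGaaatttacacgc
STE2 (chrVI:82351-82383, plus strand): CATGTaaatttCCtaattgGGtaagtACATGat
BAR1 (chrIX:322077-322109, plus strand): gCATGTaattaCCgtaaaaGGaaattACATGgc
AGA2 (chrVII:437100-437132, minus strand): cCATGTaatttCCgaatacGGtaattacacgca
ASG7 (chrX:101904-101936, minus strand): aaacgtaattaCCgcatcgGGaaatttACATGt

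The box began between 146 bases (ASG7) and 288 bases (AGA2) before the start codon, where no gene is annotated. MFA2, STE2 and BAR1 had an exact alpha2 site on both sides, and the other 4 had it on 1 side. Among the 300-base windows of 6001 protein-coding genes, 29.1% held CATGT on either strand and 28.7% held a CCNNNNNNGG box, whereas the combination was in 44 windows (0.733%), the 7 a-specific genes and 37 others. None of the 37 others had the alpha2 site on both sides, and none of the 5 alpha-specific genes had the combination. The motif and the window were set after the sequences had been seen, so these shares are a description, and a match of letters is not a measured binding site.

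**Figure D1:**
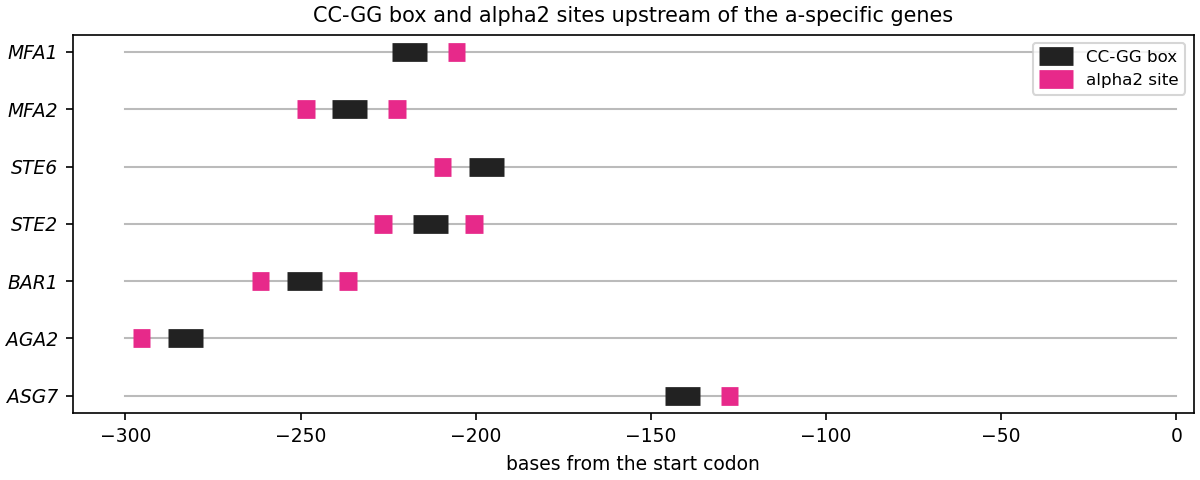
Position of the CC-GG box (black) and of exact alpha2 sites (pink) relative to the start codon, in bases, for each a-specific gene. The box began 146 to 288 bases before the start codon, and MFA2, STE2 and BAR1 had an alpha2 site on both sides.

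Expression was deposited as RPKM, read numbers scaled to the length of the gene and to the reads of the library, which allows levels of genes of different length to be compared. The 7 genes were high in WT, YBL574 and H3T11A and low in control, serine and CK2, and for each gene the lowest high replicate was above the highest low replicate. Their summed level was 18.6 and 21.7 RPKM in the control replicates, 19.8 and 23.4 in serine and 37.0 and 33.5 in CK2. It was 1864 and 1872 RPKM in WT, 2555 and 2698 in YBL574, and 2061 and 2469 in H3T11A. WT and control thus lay on opposite sides although both have the label wt. In RNA of whole cultures, fewer cells that express a gene and less RNA per cell cannot be told apart.

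**Figure D2:**
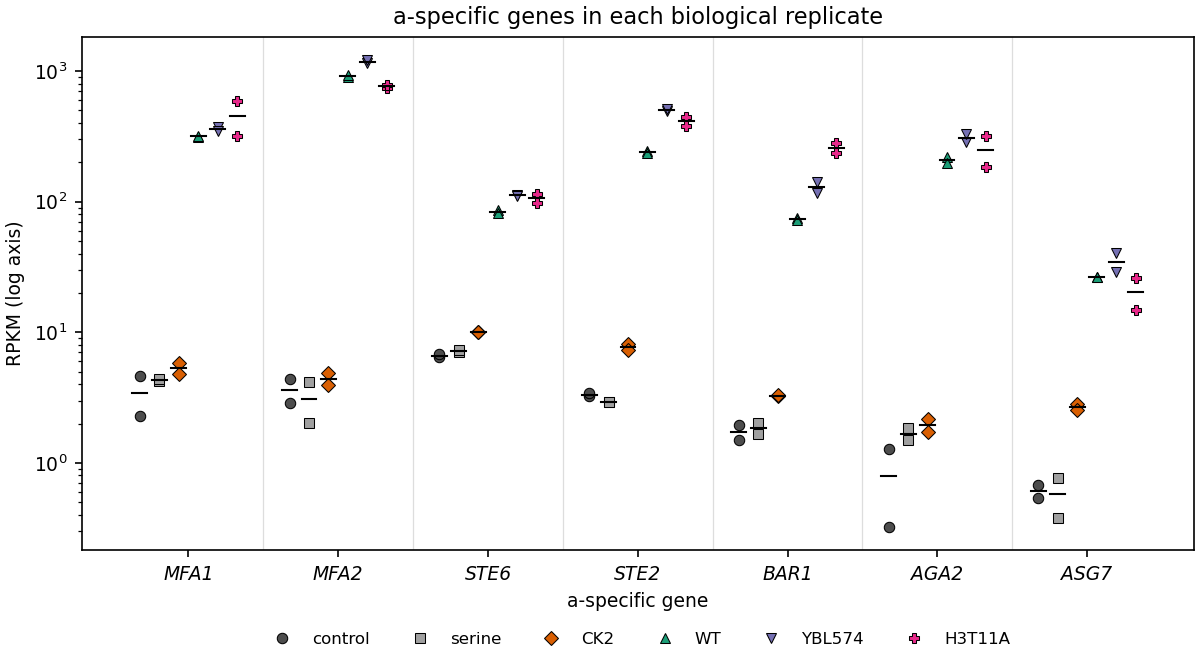
RPKM (log axis) of each a-specific gene in each biological replicate, with libraries of 1 RNA extraction averaged; symbols mark the 6 groups and lines the group means. Every WT, YBL574 and H3T11A point lies above every control, serine and CK2 point of the same gene, by 5.19-fold for ASG7 and by 153-fold for MFA2.

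Of the 2 a-factor genes, MFA2 had the higher levels in WT, YBL574 and H3T11A. MFA2 (YNL145W, chrXIV:352414-352530) was at 2.87 and 4.37 RPKM in control, 2.03 and 4.15 in serine and 4.88 and 3.91 in CK2. It was at 899 and 936 RPKM in WT, 1146 and 1215 in YBL574, and 745 and 782 in H3T11A, and these 3 groups did not overlap. The low groups overlapped, and their values rested on 3 to 8 reads per library, recovered from the whole-read steps of the low RPKM values.

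MFA1 (YDR461W, chrIV:1385176-1385286) encodes a second copy of a-factor, and its gene shares at most 11 bases in a row with MFA2. It was at 2.27 and 4.61 RPKM in control, 4.27 and 4.38 in serine and 5.78 and 4.80 in CK2, from 3 to 9 reads per library. It was at 314 and 321 RPKM in WT and 372 and 348 in YBL574. In H3T11A its replicates were 1.83-fold apart, with 295 and 345 RPKM in the libraries of replicate 1 and 532 and 643 in those of replicate 3. H3T11A overlapped both YBL574 and WT, with replicate 1 at 320 RPKM.

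STE6 (YKL209C, chrXI:42423-46295), the membrane transporter that exports a-factor, had the highest level of the 7 in the low groups and the smallest ratio between high and low groups, 12.7-fold on average. It was at 6.45 and 6.78 RPKM in control, 7.08 and 7.27 in serine and 9.96 and 9.99 in CK2, from 297 to 541 reads per library. It was at 86.1 and 81.8 RPKM in WT, 113 and 111 in YBL574, and 115 and 98.3 in H3T11A. YBL574 and H3T11A overlapped, while every other pair of neighbours in the order of levels was apart.

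STE2 (YFL026W, chrVI:82580-83875), the alpha-factor receptor, had 6 levels that did not overlap. It was at 2.93 and 2.94 RPKM in serine, 3.24 and 3.42 in control and 8.15 and 7.29 in CK2, from 47 to 148 reads per library. It was at 245 and 237 RPKM in WT, 446 and 377 in H3T11A, and 493 and 515 in YBL574. The CK2 mean was 2.46-fold the mean of control and serine, and the YBL574 mean was 2.09-fold that of WT.

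BAR1 (YIL015W, chrIX:322342-324105), the protease that lets a cells recover from alpha-factor, was at 1.95 and 1.50 RPKM in control, 1.66 and 2.02 in serine and 3.27 and 3.28 in CK2, from 31 to 81 reads per library. It was at 75.3 and 72.0 RPKM in WT, 116 and 142 in YBL574, and 236 and 280 in H3T11A. Control and serine overlapped, and the other groups were apart. BAR1 had its highest level in H3T11A, 3.51-fold the WT mean.

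AGA2 (YGL032C, chrVII:436570-436833), the agglutinin subunit that binds the alpha partner, was at 1.27 and 0.323 RPKM in control, 1.50 and 1.84 in serine and 2.16 and 1.73 in CK2. These low values rested on 1 to 8 reads per library, with a single read in control replicate 3. It was at 219 and 198 RPKM in WT, 286 and 328 in YBL574, and 183 and 318 in H3T11A, where H3T11A overlapped both WT and YBL574.

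ASG7 (YJL170C, chrX:101150-101779), which moves the G protein beta subunit away from the membrane after mating, had the lowest level of the 7 in the high groups. It was at 0.534 and 0.676 RPKM in control and 0.376 and 0.771 in serine, from 3 to 6 reads per library. In CK2 it was at 2.83 and 2.54 RPKM, from 25 and 21 reads, and its mean was 4.56-fold that of control and serine. It was at 26.5 and 26.3 RPKM in WT, 28.8 and 40.2 in YBL574, and 14.7 and 26.0 in H3T11A.

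No other RefSeq gene overlaps any of the 7, and each 35-base word of their coding sequences occurs once in the reference. Read totals fitted from the whole-read steps ran from 8774255 to 18078762 per library, and 96.7% to 98.7% of low values came out whole within 0.1 read. Replicates correlated across genes with Pearson's r of 0.971 in H3T11A, 0.974 in CK2 and 0.991 to 0.994 in the other groups, and genes are not independent replicates.

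The alpha-specific genes were set beside them as markers of the other mating type. Their summed level was 1635 and 1524 RPKM in control, 1341 and 1399 in serine and 491 and 474 in CK2, but 27.6 to 36.0 RPKM in the replicates of WT, YBL574 and H3T11A. In control, serine and CK2 most of this sum was MF(ALPHA)1. MF(ALPHA)1, the main alpha-factor gene, was at 1491 and 1379 RPKM in control, 385 and 340.0 in CK2 and 2.64 and 2.44 in WT. STE3, the a-factor receptor, was at 45.2 and 47.0 RPKM in control, 46.4 and 52.2 in CK2 and 4.83 and 7.74 in WT. AFB1, the a-factor barrier gene, was at 77.6 and 81.3 RPKM in control, 30.9 and 32.4 in CK2 and 17.2 and 12.7 in WT. SAG1, alpha-agglutinin, was within 10.3 to 27.2 RPKM in every replicate, and MF(ALPHA)2 was at or below 2.78 RPKM in every replicate outside CK2, so these 2 did not follow the split.

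**Figure D3:**
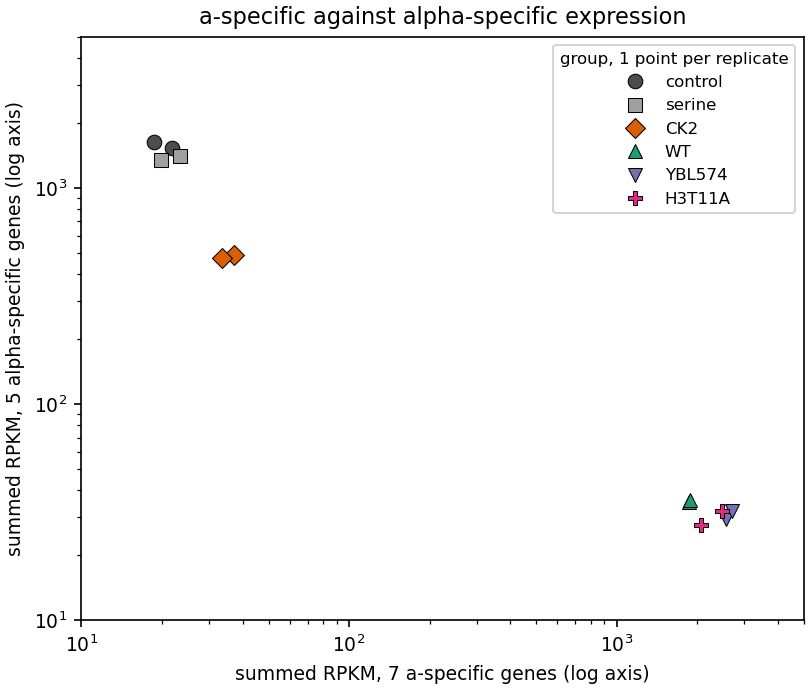
Summed RPKM of the 5 alpha-specific genes against that of the 7 a-specific genes, both on log axes, with 1 point per biological replicate. Control, serine and CK2 lie at 18.6 to 37.0 RPKM of a-specific and 474 to 1635 of alpha-specific expression, and the other groups at 1864 to 2698 and 27.6 to 36.0.

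Of the 6 mating-type cassette genes, HMRA1, MATALPHA1 and HMLALPHA1 were divided by the same split. HMRA1, the a1 gene, was at 0 RPKM in both control replicates, 0.415 and 0.212 in serine and 0 and 0.400 in CK2, but 187 and 193 in WT, 105 and 169 in YBL574 and 63.9 and 58.4 in H3T11A. The reference carries alpha at MAT, so a1 reads from an a locus could be placed only on HMRA1. MATALPHA1 was at 15.6 and 16.3 RPKM in control, 19.3 and 13.5 in serine, 17.8 and 21.6 in CK2 and at most 0.934 in the other groups, and HMLALPHA1 was at 14.7 to 17.5 RPKM against at most 0.519. MATALPHA2 and HMLALPHA2 differed less, at 50.5 to 65.0 RPKM in control, serine and CK2 and 13.7 to 31.3 in the others, and HMRA2 overlapped, with 41.6 and 56.7 RPKM in CK2 and 42.2 and 39.6 in WT. Every 35-base word of the 5 cassette genes other than HMRA1 occurs more than once in the reference, which holds silent copies at HML and HMR, so their reads cannot be assigned to 1 locus. The mating type of a strain and its genotype or treatment group cannot be told apart here where they differ together, as in CK2 against WT.

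For CK2 against WT, the comparison that brought the genes to notice, the WT mean was 209-fold the CK2 mean for MFA2, 107-fold for AGA2, 59.9-fold for MFA1, 31.2-fold for STE2, 22.5-fold for BAR1, 9.83-fold for ASG7 and 8.41-fold for STE6. On the log2(RPKM + 1) scale, which understates changes of low genes, the median difference was -4.80, against 0.01 over all genes tested. In this comparison 31.0% of the 6727 genes tested passed an adjusted p of 0.05, 16.4% higher and 14.6% lower in CK2. Nothing is read from that share, since the genes were chosen with this contrast known. The 5 alpha-specific genes were also listed with earlier results of these data known, so their values here are a description too. They were higher in CK2 than in WT, by 0.99 to 6.68 on the log2 scale with a median of 2.82. The CK2 means were 1.31-fold (MFA2) to 4.56-fold (ASG7) the means of control and serine. The replicates of MFA2 and AGA2 overlapped there. Those of MFA1 were apart only at 4.80 against 4.61 RPKM, from 7 and 6 reads. The share of all genes higher in CK2 than in control and serine was not counted. Nothing is therefore read from the shared direction, and these differences were not tested.

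Serine treatment addresses whether an amino acid that the paper describes as stimulating SESAME changed the genes. None of the 7 passed the threshold in serine against control, by limma on log2(RPKM + 1) with Benjamini-Hochberg adjustment over the genes tested, where 1.34% of all genes passed. No a-specific gene had an unadjusted p below 0.05 either, and none passed with voom on recovered reads. The differences ran from -0.21 for MFA2 to 0.62 ± 0.29 (SE) for AGA2, with a median of 0.06. AGA2 had an adjusted p of 0.391, and its 4 libraries held 4, 1, 5 and 6 reads. Replicates did not overlap for STE2, STE6 and AGA2, 3 of 7 genes, whereas this held for 55.0% of all genes. MFA1, MFA2, AGA2 and ASG7 had 1 to 6 reads in each of these libraries, near the floor of 3 reads, whereas BAR1, STE2 and STE6 had 31 to 348. ASG7 was below 1 RPKM in all of them and passed the filter only through the other groups. The lack of a call therefore says little for MFA1, MFA2, AGA2 and ASG7, and the count rests mainly on BAR1, STE2 and STE6. Both groups lay on the low side of the split, so the response of cells with high levels was not measured here.

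H3T11A against YBL574 compares cells of the same listed mating type, both with high levels of the 7 genes. BAR1 was 2.00-fold higher in H3T11A, the log2 difference being 1.00 ± 0.13 (SE, limma, adjusted p = 0.000742). STE2 fell by 0.30 on the log2 scale (SE 0.10, adjusted p = 0.038), and ASG7 fell by 0.77 (SE 0.25, adjusted p = 0.0379). Thus 3 of 7 passed the threshold, 1 higher and 2 lower, where 40.7% of all genes passed (19.1% higher and 21.6% lower), a like share. Replicates did not overlap for BAR1, STE2, ASG7 and MFA2, 4 of 7, against 65.5% of all genes.

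MFA2 had a log2 difference of -0.63 ± 0.23 (SE, limma, adjusted p = 0.0595) and AGA2 of -0.34 ± 0.29 (adjusted p = 0.361). MFA1 had a difference of 0.27 ± 0.29 (adjusted p = 0.487), and STE6, at -0.07 ± 0.09 (adjusted p = 0.573), was the closest to 0. The called changes of STE2 and ASG7 were thus opposite in sign to that of BAR1.

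The BAR1 call was lost where the 2 groups were fitted alone (log2 difference 1.00, limma, adjusted p = 0.0667), a fit with 2 residual degrees of freedom. The STE2 call was lost without YBL574 replicate 2 (adjusted p = 0.0961), YBL574 replicate 3 (adjusted p = 0.157) or H3T11A replicate 3 (adjusted p = 0.12), at differences of -0.33, -0.27 and -0.18. The ASG7 call was lost without YBL574 replicate 3 (-0.53, adjusted p = 0.224) or H3T11A replicate 1 (-0.38, adjusted p = 0.163). With upper-quartile scaling the STE2 and ASG7 calls were lost too (adjusted p = 0.0696 and 0.0745), as was that of STE2 with voom (adjusted p = 0.0848) and that of ASG7 with a pseudocount of 0.1 (adjusted p = 0.0904). MFA1 passed the threshold without H3T11A replicate 1 (0.71, adjusted p = 0.0396) and was at -0.17 without H3T11A replicate 3.

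**Figure D4:**
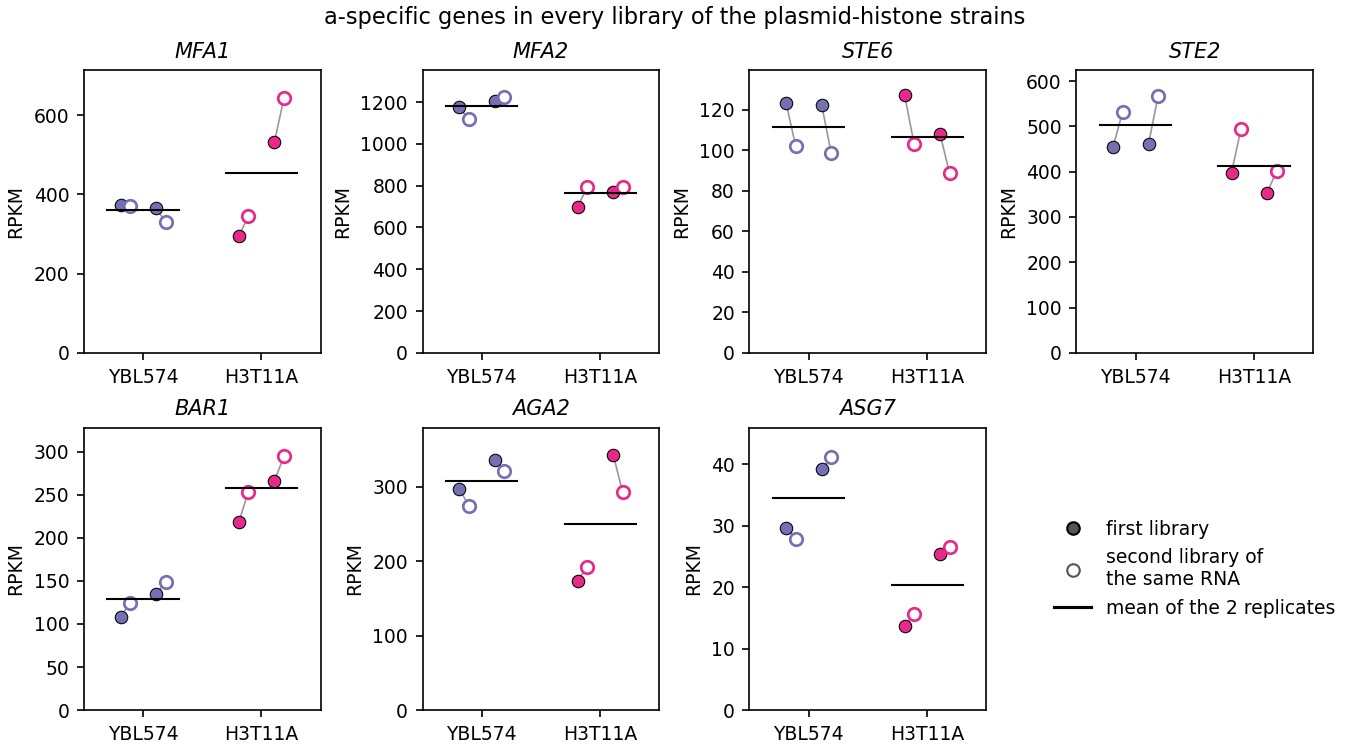
RPKM of each a-specific gene in every YBL574 and H3T11A library, axes starting at 0; filled and open circles joined by a line are the first and second library of 1 RNA extraction, and black lines are the means of the 2 biological replicates. BAR1 lies at 109 to 148 RPKM in YBL574 and 219 to 294 in H3T11A, and MFA1, AGA2 and ASG7 have H3T11A replicates 1.73-fold to 1.83-fold apart.

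The second library of an RNA extraction differed from the first in the same direction for 3 of the genes in all 4 extractions. STE6 was lower in the second library, at 0.807 to 0.829 of the first, whereas STE2 was higher, at 1.133 to 1.242, and BAR1 was higher, at 1.096 to 1.159. Each extraction contributed both libraries, so the means of the 2 strains hold the same mix. WT had no second libraries, so ratios of these strains to WT do not hold the same mix.

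Genes that act on or after the a-specific products were counted from lists of known pathway members. The lists were chosen with earlier results of these data known, so the counts per list are a description. Of the 7 genes for a-factor maturation, STE24, the protease of its first cleavages, rose in H3T11A from 91.8 and 92.4 RPKM to 203 and 187 (log2 difference 1.07 ± 0.08 SE, limma, adjusted p = 6.54e-05). STE23 and STE14, the carboxyl methyltransferase of a-factor, fell by 0.37 and 0.54 on the log2 scale, and the other 4 did not pass. Thus 3 of 7 passed, near the 40.7% of all genes. Of 10 pheromone-induced genes, 7 rose and none fell, with a median difference of 0.77 against -0.06 over all genes, where 19.1% of all genes rose. They were FUS1 (1.38), PRM1 (1.16), PRM2 (1.00), FIG2 (0.87), KAR4 (0.78), PRM3 (0.76) and AGA1 (0.74), the last encoding the anchor subunit to which Aga2 is bound.

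FUS1, a cell fusion gene, was at 7.11 and 11.1 RPKM in YBL574 and 16.7 and 36.8 in H3T11A. PRM2 was low in both strains, at 0.866 and 1.68 RPKM in YBL574 and 2.53 and 4.65 in H3T11A. The count of pheromone-induced genes that rose was 1 without YBL574 replicate 2, 3 without H3T11A replicate 3 and 0 where the 2 groups were fitted alone. Of 19 shared signalling genes, 4 rose and 4 fell, near the shares of all genes (19.1% higher and 21.6% lower). STE11, the MAP kinase kinase kinase, rose by 1.16 on the log2 scale, as did STE5, STE7 and CDC24 by 0.34 to 0.49, while MSG5, KSS1, DIG2 and DIG1 fell by 0.85, 0.57, 0.39 and 0.38. MCM1, whose product binds the operator box, fell by 0.54 on the log2 scale. Among the cassette genes HMRA1 fell by 1.11, HMLALPHA2 by 0.50 and MATALPHA2 by 0.44, with the other 3 at -0.40 to -0.18. This was 3 of 6 called, where 40.7% of all genes passed and 21.6% fell. No 35-base word of HMLALPHA2 or MATALPHA2 is unique in the reference. Their reads cannot be assigned to 1 locus, so their falls are not separate results. RME1 and HO, haploid-expressed genes for a meiosis repressor and the mating-type switching endonuclease, fell by 1.21 and 1.36. Of the alpha-specific genes, MF(ALPHA)1 fell by 0.73, from 3.96 and 5.21 RPKM to 2.01 and 2.73. AFB1 fell by 0.80, from 5.89 and 7.87 RPKM to 4.17 and 2.89. Both were low in the 2 strains beside control, where MF(ALPHA)1 was at 1491 and 1379 RPKM and AFB1 at 77.6 and 81.3. The other 3 did not pass, so 2 of 5 were called, near the 40.7% of all genes.

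**Figure D5:**
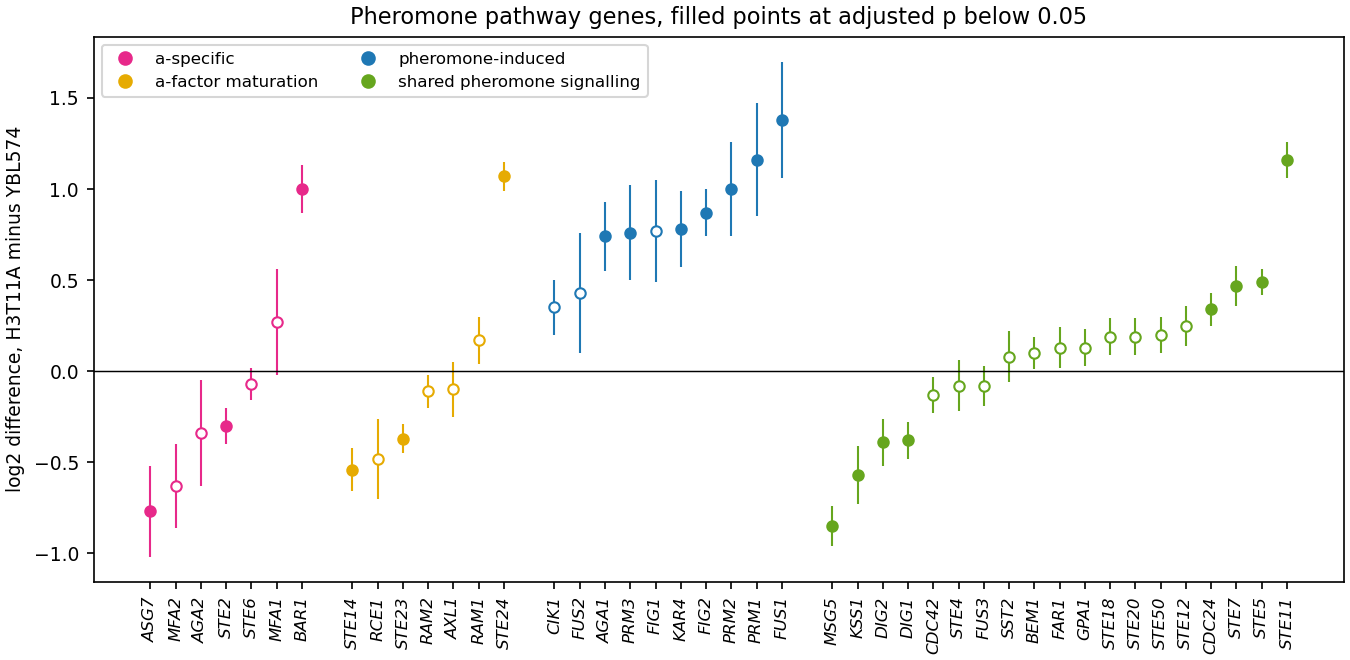
Log2 difference between H3T11A and YBL574 (points) with its SE (bars) for the a-specific genes and 3 lists of pheromone pathway genes; filled points passed an adjusted p of 0.05. Of the pheromone-induced genes 7 of 10 are filled and above 0, whereas the a-specific genes lie on both sides, from -0.77 to 1.00.

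YBL574 against control compares strains that did not enter the choice of genes by CK2 and WT, although the split had been known from the same table. All 7 genes were higher in YBL574, where 61.9% of all genes passed, 21.0% higher and 40.8% lower. The log2 differences were 8.02 ± 0.23 (SE) for MFA2, 7.47 ± 0.29 for AGA2, 6.86 ± 0.10 for STE2, 6.40 ± 0.29 for MFA1, 5.57 ± 0.13 for BAR1, 4.45 ± 0.25 for ASG7 and 3.89 ± 0.09 for STE6, and the median over all genes was -0.17. Because the split was known when the 7 genes and the gene lists were chosen, these differences are a description and their p-values are not given. Upper-quartile scaling moved the median of all genes to 0.20. Among the called genes it moved the share of higher ones from 34.0% to 62.3%. The 7 genes were higher in YBL574 in every alternative that was run, at differences of 3.86 to 8.65. Of the alpha-specific genes, MF(ALPHA)1 (-8.01), STE3 (-3.45) and AFB1 (-3.36) were lower. Strain, plasmid histones, growth batch and mating type cannot be told apart in this comparison.

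The genes of most alike pattern were ranked by Pearson's r with the mean of the 7 centred profiles over the 12 biological replicates, among 1853 genes spanning at least 2 log2 units. Between pairs of the 7 genes r was 0.950 to 0.999. The highest others were YNL146C-A (0.981), HMRA1 (0.978), YDL241W (0.969), SNR18 (0.967) and IMD3 (0.966). YNL146C-A (chrXIV:351386-351580, minus strand), an unnamed reading frame on the opposite strand whose start lies 833 bases before that of MFA2, was at 0 to 1.31 RPKM in control, serine and CK2 and 17.7 to 35.5 in the other groups. IMD3, an IMP dehydrogenase gene with close paralogs, was at 82.3 to 144 RPKM in the low groups and 245 to 335 in the others. The lowest r belonged to HMLALPHA1 (-0.99), MF(ALPHA)1 (-0.99) and MATALPHA1 (-0.986). The 12 replicates form 2 clusters, so r mostly measures the distance between these clusters.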

How the data were processed

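Total RNA was sequenced on an Illumina platform. The authors deposited 1 table of RPKM values for all libraries. The submitters' processing notes name CASAVA 1.8.2, TopHat2 2.0.13, edgeR and build sacCer3, and the paper given with the series does not describe this RNA-seq. The counting tool, the annotation, strand handling and the RPKM denominator are not given in the sources used here, so reads of antisense genes may not be separated. Of the identifiers, 6162 (86.5%) matched RefSeq.

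Libraries of 1 extraction were averaged. Genes with at least 1 RPKM in at least 2 replicates (6727) were fitted on log2(RPKM + 1) with limma 3.58.1 in R 4.3.3 (lmFit and eBayes with trend) over all 6 groups, with 6 residual degrees of freedom. Tests were two-sided with Benjamini-Hochberg adjustment over all genes tested, at a threshold of 0.05. All 7 a-specific genes passed the filter, ASG7 only through groups other than control and serine. They and all gene lists were chosen with earlier results of these data known. Read totals were fitted from low RPKM values of 5988 genes. Simulated totals were recovered within 0.0004%. Below 3 reads a value was taken as under the floor, and reads cover counting error only.

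Named genes were all 7 members, alpha-specific and cassette genes, list genes past the threshold (named in H3T11A against YBL574, elsewhere counted with examples), and the 5 highest and 3 lowest by likeness. AGA2 in 1 control library, FUS1, PRM2 and STE24 were described further after their values had been seen. The replicate numbers were not used to pair samples in the main fits, and the labels do not say whether they pair them. Alternatives were a pseudocount of 0.1, no filter, upper-quartile scaling, 2-group fits, first libraries only, each replicate left out, a replicate block and, added after the data were seen, voom on recovered reads and a block with crossed numbers. Python 3.11.15 with pandas 2.3.3 was used for the rest.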

Additional observations from a re-analysis of the deposited data

How the results depend on the processing

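All 77 values of the a-specific genes in YBL574 against control kept their direction, which is a description because the split was known beforehand. In serine against control none of the 7 passed in any of 12 alternatives (84 values). Leaving out a replicate turned the sign of 4 of them there, with ranges of -0.07 to 0.70 for MFA1, -0.59 to 0.18 for MFA2, -0.06 to 0.18 for BAR1 and -0.22 to 0.14 for ASG7. For H3T11A against YBL574, upper-quartile scaling gave 1 of 7 called (BAR1) with STE6 at 0.02, and the 2-group fit gave 0 of 7 (limma; BAR1 at an adjusted p of 0.0667) and 224 genes in place of 2740, of which 2032 had an unadjusted p below 0.05. Of 260 values of list genes called in this comparison, 53 missed the threshold and none changed sign. Voom on recovered reads called 3 of 7 there, with MFA2 (adjusted p = 0.001) in place of STE2 (adjusted p = 0.0848). Leaving out replicates gave 1 to 3 of 7 and 1656 to 4008 genes, with AGA2 at -0.74 to 0.05, MFA1 at -0.17 to 0.71 and STE6 at -0.18 to 0.05. In serine against control, 90 genes became 15 to 23 without 1 replicate and 142 with voom. In CK2 against WT, 2083 became 1062 to 1270 without 1 replicate, and upper-quartile scaling raised the share of higher calls from 52.8% to 64.7%. A lone replicate was assumed to vary like the other groups. The causes were not tested.

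With a replicate block the count in serine against control was 0 (1162 genes at an unadjusted p below 0.05), as it was with crossed numbers. The block gave 4676 genes for YBL574 against control, against 4163, and 2591 for CK2 against WT. Deviations of same-numbered replicates from their group means correlated across genes at -0.088, 0.001 and -0.052 in these contrasts. No shared deviation was thus seen, but such values cannot show whether same-numbered samples were handled together. The labels of CK2 replicate 2 disagree on its number (its title was followed), so the CK2 block and correlation rest on a disputed number. Groups of 2 limit every test, and levels in control, serine and CK2 rest on 1 to 9 reads for MFA1, MFA2 and AGA2.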

Other observations

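In CK2 against WT, 3 of 19 shared pheromone signalling genes rose and 7 fell (limma, adjusted p below the threshold), where 16.4% of all genes rose and 14.6% fell. The largest falls were in FUS3, the mating MAP kinase, by 1.39 on the log2 scale (SE 0.11, adjusted p = 9.74e-05), and in FAR1, which arrests the cell cycle upon pheromone, by 1.24 (SE 0.11, adjusted p = 0.00012). FAR1 was at 33.7 and 37.5 RPKM in CK2, 86.2 and 84.9 in WT and 18.6 and 15.8 in control. CK2 and WT lay on opposite sides of the a and alpha split, so mating type and genotype cannot be told apart in these differences. In YBL574 against control 6 of the 19 rose and 7 fell, near the shares of all genes (21.0% higher and 40.8% lower), with SST2 and FAR1 both 2.05 higher, and 6 of 10 pheromone-induced genes rose, of which AGA1 rose by 2.39. Of the 7 genes for a-factor maturation 3 rose there and 3 fell, by less than 1 log2 unit each. Upper-quartile scaling turned the signalling count in YBL574 against control to 11 higher and 4 lower, and the maturation count to 4 higher and none lower. Over all 6727 genes tested, the same scaling gave 2520 higher and 1525 lower, so the shift was not particular to these lists.

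Of the 37 other genes with an operator-like stretch, 36 were tested in YBL574 against control. Of these 8 were higher and 20 lower, against 21.0% and 40.8% of all genes, with a median log2 difference of -0.45 against -0.17 over all genes. Among the called genes of this comparison, upper-quartile scaling moved the share of higher ones from 34.0% to 62.3%. The 36 genes were not recounted under that scaling. The highest was RPL9A at 2.70 and the lowest CSR2 at -2.40. In serine against control none of the 36 passed (limma), and their differences ran from -1.09 to 0.38.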
